A study of Mus musculus with 30 samples.

Results

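The 32 genes described here belong to the program that the nuclear receptor PPARalpha turns on in liver: fatty acid uptake, mitochondrial and peroxisomal beta-oxidation, microsomal omega-oxidation and ketogenesis. They were taken by symbol from a list of the pathway, whose rule uses no measured value but which was written with earlier results of these data known, from the 41388 genes of the deposited tables. All 32 were found, and all 32 passed the filter on low counts in each of the 7 comparisons below. RNA was sequenced from mice labelled A1cf-transgenic (A1cf_Tg/+, here Tg) or A1cf-knockout (A1cf_-/-) and from wild-type mice of the substrains C57BL/6J (6J) and C57BL/6NJ (6NJ). A1CF binds RNA and helps the deaminase APOBEC1 to edit the Apob transcript. Plated hepatocytes came from 12-week-old mice, 3 pools of Tg and 3 of wild-type 6J; they had been freed with collagenase and kept overnight on collagen, so that they measure cultured cells. Whole livers came from 12-month-old mice, Tg and wild-type 6J with 4 pools each, and knockout and wild-type 6NJ with 3 pools each, the latter set sequenced in a separate study. RNA of 3 to 4 mice was combined in every pool, and the p-values below therefore describe variation among pools. The labels give neither the promoter of the transgene, nor sex, feeding state or hour of sampling.

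PPARalpha is activated by fatty acids, pairs with the receptor RXR and binds direct repeats of AGGTCA with 1 base between (DR1 elements) in the DNA of its target genes. During fasting its targets let the liver take up fatty acids, carry them into mitochondria as carnitine esters, shorten them by beta-oxidation and release ketone bodies. Very long chains are shortened first in peroxisomes, and the CYP4A enzymes of the endoplasmic reticulum oxidise the far end of the chain. Hepatic Cyp4a10, Cyp4a14, Vnn1, Pdk4 and Fgf21 are common reporters of PPARalpha activity in mouse liver.

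RNA libraries held 17044839 to 37211328 counts and from 18559 to 22101 detected genes. Levels are given in CPM, counts scaled to a common library size with the TMM factor, which corrects for the composition of each library. A1cf itself read 19.4 to 29.0 CPM in the knockout livers and 192 to 232 CPM in their controls. It did not mark the transgene: it read 8.31 to 10.5 CPM in hepatocytes labelled Tg and 6.65 to 10.7 CPM in wild-type hepatocytes, and in livers it was lower in the pools labelled Tg (141 to 164 CPM) than in the 6J controls (216 to 286 CPM; edgeR quasi-likelihood test, adjusted p = 0.0369). Every direction given below for Tg therefore rests on the labels. One 6J liver pool (pool 2) stood apart with 5854 CPM summed over 20 skeletal muscle genes, where the other 13 liver pools held 65.7 to 330 CPM. Among hepatocytes, Tg pools 1 and 2 and wild-type pool 1 had 1.39% to 2.01% of counts on mitochondrially encoded genes and the other 3 pools 3.14% to 3.71%. The defining markers of hepatocytes were abundant in all groups, with sums of 55020 CPM or more over 14 genes.

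Some members are so alike that short reads cannot always be assigned to one of them, and these stretches are shown because several of the results below fall on these genes. Within coding sequence (GENCODE M21, GRCm38), Cyp4a10 and Cyp4a31 were 96.6% identical, Cyp4a10 and its neighbour Cyp4a32 97.2%, and Cyp4a10 and Cyp4a14 only 75.4%. Bases 25 to 114 of the coding sequence read as follows, with capitals at the bases where Cyp4a31 differs from Cyp4a10:
Cyp4a10: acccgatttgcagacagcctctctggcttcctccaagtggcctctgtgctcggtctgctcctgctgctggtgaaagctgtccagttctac
Cyp4a32: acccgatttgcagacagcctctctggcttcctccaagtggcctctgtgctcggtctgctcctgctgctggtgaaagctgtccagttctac
Cyp4a31: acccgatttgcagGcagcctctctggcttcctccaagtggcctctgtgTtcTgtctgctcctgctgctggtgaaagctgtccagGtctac
The genes lie side by side on chromosome 4 (Cyp4a14 at 115486200 to 115496142, Cyp4a10 at 115518264 to 115533649 and Cyp4a31 at 115563649 to 115579015). Of all 50-base words in the transcripts of Cyp4a10, 29.8% also occurred in another gene, against 20.6% for Cyp4a31 and 0.235% for Cyp4a14. The peroxisomal thiolases Acaa1a and Acaa1b on chromosome 9 were 96.5% identical, with a longest identical run of 327 bases. Bases 319 to 408 read the same in both:
Acaa1a: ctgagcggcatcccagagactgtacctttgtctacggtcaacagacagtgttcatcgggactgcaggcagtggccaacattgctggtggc
Acaa1b: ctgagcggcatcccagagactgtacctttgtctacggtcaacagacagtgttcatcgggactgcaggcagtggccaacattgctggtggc
For Acaa1b the shared words came to 39.6%, and for Hadhb to 19.7%, shared mostly with the gene models Gm13910 and Gm9108. The values of Cyp4a10, Cyp4a31, Acaa1a, Acaa1b and Hadhb are uncertain to that extent. Acadvl shared 42.9% of its exon bases with Dvl2 on the other strand, and the sources used here do not say whether reads were counted by strand.

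Promoters were read from RefSeq (GRCm38.p6), 250 bases before to 50 bases after each start, for the 26 members in that table, because the binding sequence of PPARalpha is known. Cyp4a10, Cyp4a14, Cyp4a31, Vnn1, Decr1 and Acaa2 had no promoter there and were not searched. The DR1 letters AGGTCANAGGTCA, searched on both strands with at most 2 mismatches, occurred in 2 of the 26 genes (7.69%) and in 4.40% of all 27025 genes of the table. They lay in the promoters of Etfa, the alpha subunit of the electron transfer flavoprotein (chr9:55512194-55512493, minus strand), and of Slc25a20, the carnitine-acylcarnitine carrier (chr9:108661886-108662185, plus strand), marked in capitals:
Etfa: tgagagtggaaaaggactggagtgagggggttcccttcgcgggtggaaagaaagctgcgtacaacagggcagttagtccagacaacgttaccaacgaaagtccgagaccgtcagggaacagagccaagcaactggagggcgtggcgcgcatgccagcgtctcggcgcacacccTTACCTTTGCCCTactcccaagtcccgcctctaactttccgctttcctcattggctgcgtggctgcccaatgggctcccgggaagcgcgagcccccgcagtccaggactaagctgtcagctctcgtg
Slc25a20: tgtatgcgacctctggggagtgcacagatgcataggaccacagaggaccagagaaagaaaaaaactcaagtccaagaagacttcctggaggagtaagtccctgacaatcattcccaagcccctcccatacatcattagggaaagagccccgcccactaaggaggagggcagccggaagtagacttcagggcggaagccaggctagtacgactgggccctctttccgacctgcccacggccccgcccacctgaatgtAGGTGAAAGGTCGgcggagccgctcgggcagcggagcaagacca
A single repeat, AGGTCA, which also occurs inside a perfect DR1, was present in 4 of the 26 genes (15.4%) and in 18.1% of all genes. A match is a string of letters and not a measured binding site. Elements farther away were not searched.

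In wild-type livers the members spanned a wide range of levels per kilobase of gene length. In the 6J controls the highest was Acaa2, the mitochondrial thiolase, at 536 CPM per kilobase. Next came Slc27a2, the very-long-chain acyl-CoA synthetase, at 379 CPM per kilobase and Acaa1b at 260.1 CPM per kilobase. Cpt1a, which forms acylcarnitines at the outer mitochondrial membrane, followed at 173 CPM per kilobase. The lowest were Hadhb, the beta subunit of the trifunctional protein, at 3.28 CPM per kilobase, the hepatokine Fgf21 at 1.42 CPM per kilobase and Cyp4a31 at 0.699 CPM per kilobase. Hadhb lay far below its partner subunit Hadha in this group, which read 84.6 CPM per kilobase. In the 6NJ controls the order at the top was Acaa1b, Acaa2, Slc27a2 and Cyp4a10, and at the bottom Ppargc1a, the transcriptional coactivator PGC-1alpha, and Pdk4, which blocks glucose oxidation. In the 6J group the ranges of mean ± SD overlapped for 28 of 31 pairs of neighbours in this order, but not for Acaa2 and Slc27a2, Vnn1 and Slc27a1, or Hadhb and Fgf21.

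Plated wild-type hepatocytes held much less RNA of this program than wild-type 6J liver. The members' median log2 difference was -2.13, against -0.04 over all genes tested. The fall was not limited to these genes: 14 hepatocyte marker genes had a median of -1.87, with 13 lower and 1 higher, and the 53 other pathway genes tested had a median of -2.16. In the edgeR quasi-likelihood test with Benjamini-Hochberg adjustment over all genes, 27 of 32 members passed at 0.05, in a comparison where 72.0% of all genes passed. Of these, 26 were lower in hepatocytes (36.4% of all genes) and 1 was higher (35.6%). Cultured cells of 12-week-old mice were here set against whole liver of 12-month-old mice. The libraries also differed in depth, with 33291216 to 36411146 counts in hepatocytes and 17044839 to 25315849 in liver. Plating, age, depth and the other cells of the liver therefore cannot be told apart. In such bulk RNA, fewer cells of a type and less RNA per cell cannot be told apart either.

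The receptor itself showed the largest difference among the members. Ppara read 11.4, 6.69 and 10.2 CPM in the 3 hepatocyte pools and 343, 322, 324 and 366 CPM in the 4 livers. These groups lie far apart, with a log2 difference of -5.44 ± 0.24 (SE; adjusted p = 1.76e-07). Ppargc1a differed by -3.97 and all 3 genes of the carnitine shuttle were lower, led by Cpt1a at -3.44. The ketone-forming dehydrogenase Bdh1 followed at -4.34, Slc27a2 at -4.28, Acaa1b at -3.82 and the peroxisomal bifunctional enzyme Ehhadh at -3.31. The mitochondrial acyl-CoA dehydrogenases, which take the first step of beta-oxidation, differed less, from -1.80 (Acadm) to -0.94 (Acads). Slc27a1, a fatty acid transport protein typical of muscle and fat, was the 1 member higher in hepatocytes: 29.0, 32.7 and 33.1 CPM against 9.37, 16.1, 10.8 and 9.58 CPM in liver (log2 difference 1.17 ± 0.21, adjusted p = 0.000625). The 5 members that did not pass were Cyp4a10, Cyp4a14, Cyp4a31, Vnn1 and Pdk4, all of which varied several-fold between the 6J liver pools. Without the muscle-rich 6J pool 2 Pdk4 passed as higher in hepatocytes (1.87, adjusted p = 0.000525), and without 6J pool 4 Cyp4a10 passed as lower.

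Knockout livers differed from 6NJ livers at 10 of the 32 members, 9 higher and 1 lower, while 2.98% of all genes tested passed (1.5% higher and 1.48% lower). The omega-hydroxylases Cyp4a14, Cyp4a10 and Cyp4a31 rose 3.67-, 3.26- and 2.40-fold, and Slc27a1, Vnn1 and Pdk4 rose 2.76-, 2.45- and 2.23-fold. Eci1, Hadhb and Decr1, enzymes inside the mitochondrion, rose 1.56-, 1.36- and 1.33-fold. The hepatokine Fgf21 fell to 0.286 of the control level. Ppara was level, with 307, 272 and 353 CPM in knockout pools and 326, 302 and 279 CPM in controls (log2 difference 0.03 ± 0.11, adjusted p = 0.918).

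**Figure D1:**
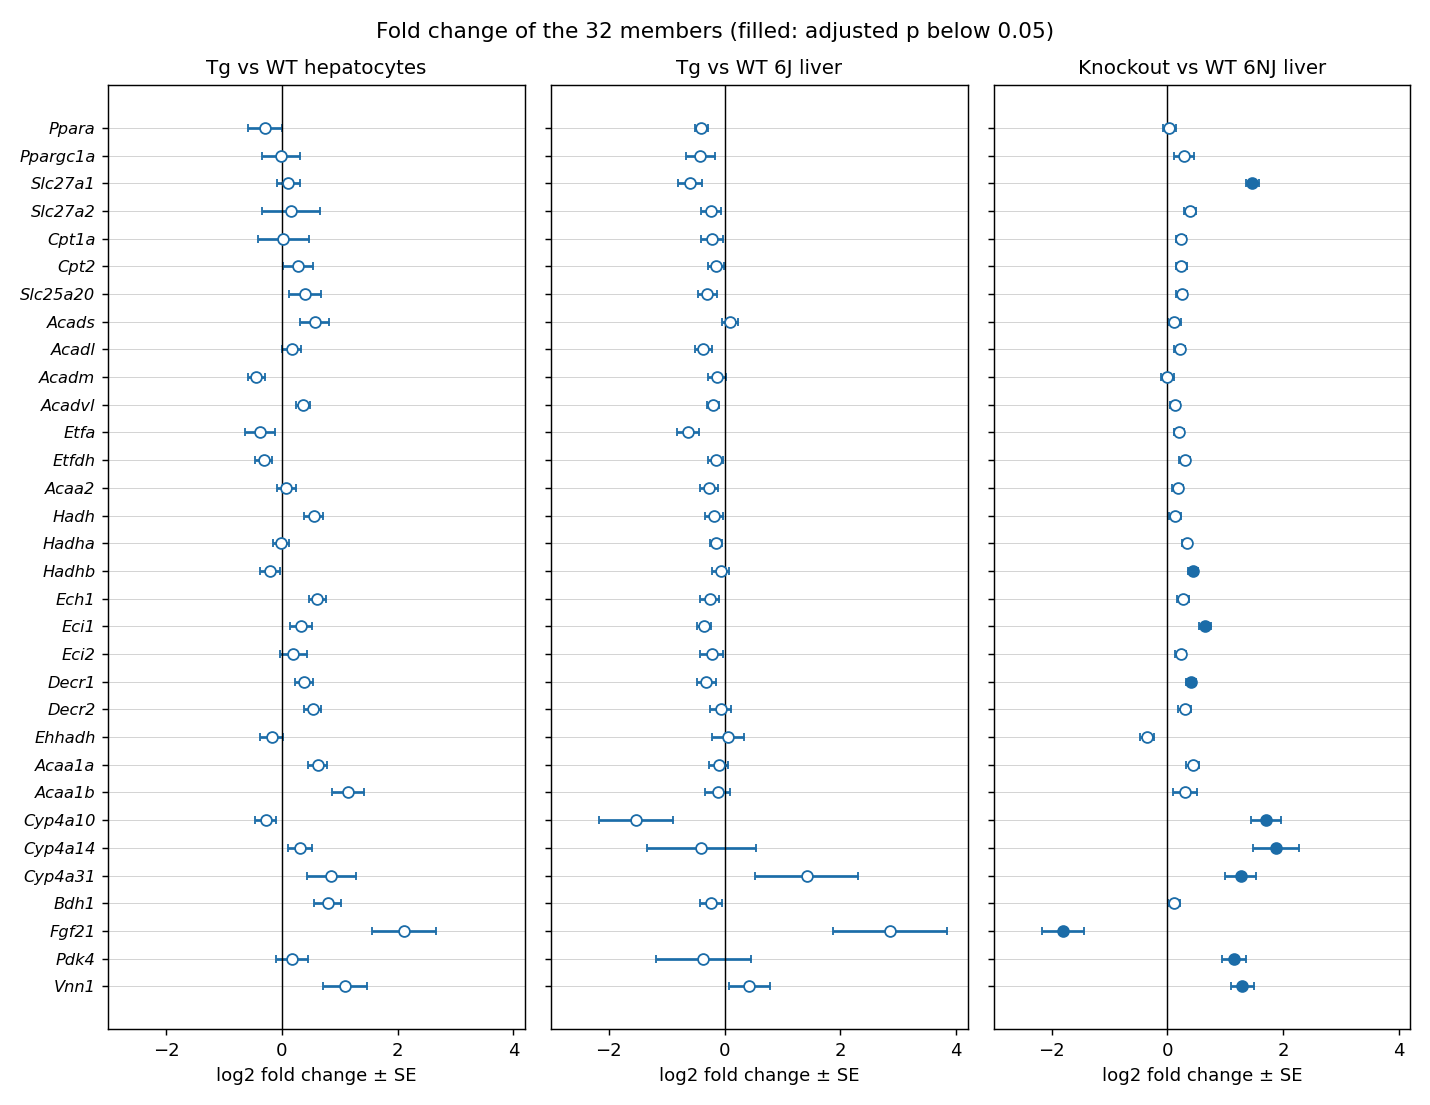
Log2 fold changes of the 32 members from edgeR in Tg against wild-type hepatocytes, Tg against 6J livers and knockout against 6NJ livers. Bars are standard errors derived from the F statistic of the test, and filled points pass at adjusted p below 0.05. Filled points occur only in the knockout panel, 9 above 0 and Fgf21 below 0.

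All 3 omega-oxidation genes rose, and Cyp4a14 had the widest log2 difference of the 32 members. Cyp4a10 read 1112, 1723 and 739.7 CPM in the 3 knockout pools and 366, 328 and 397 CPM in the 3 controls. Every knockout pool lay above every control (log2 difference 1.71 ± 0.25, adjusted p = 0.00914). Cyp4a14 read 919, 1665 and 429 CPM against 295, 207 and 314 CPM. These groups also did not overlap, but the knockout pools were themselves spread from 429 to 1665 CPM (1.88 ± 0.39, adjusted p = 0.0376). Cyp4a31, at 9.86, 17.3 and 8.04 CPM against 4.2, 4.62 and 5.66 CPM, showed the same order of pools (1.27 ± 0.27, adjusted p = 0.0371). Pool 2 was the highest knockout pool and pool 3 the lowest for all 3 genes. Cyp4a10 and Cyp4a31 share much of their sequence, as printed above, so their reads may be exchanged; Cyp4a14 does not.

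Vnn1 encodes a pantetheinase, an enzyme of coenzyme A turnover. It read 133, 154 and 111 CPM in knockout pools and 68.5, 37.9 and 54.7 CPM in controls, with no overlap (1.29 ± 0.20, adjusted p = 0.0104). Pdk4, the kinase that switches off pyruvate dehydrogenase when fat is burned, read 9.48, 10.3 and 14.3 CPM against 5.72, 3.71 and 5.80 CPM (1.15 ± 0.21, adjusted p = 0.0213). Both genes were thus higher in each knockout pool than in any control. Fgf21 is secreted by liver in fasting and other nutritional stress. It went the other way, with 0.450, 1.24 and 0.882 CPM in knockouts and 2.42, 2.56 and 3.91 CPM in controls (-1.80 ± 0.36, adjusted p = 0.0317). All of these Fgf21 levels are low, 14 to 143 counts a library. Bdh1, the last enzyme of ketogenesis, stayed at 224 to 236 CPM in knockouts beside 189 to 240.1 CPM (0.12 ± 0.10, adjusted p = 0.587).

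Slc27a1 had the smallest p among the members. It read 31.3, 31.4 and 28.5 CPM in knockout pools and 12.2, 11 and 9.62 CPM in controls, groups more than 2-fold apart (1.47 ± 0.11, adjusted p = 0.000245). Its paralogue Slc27a2, the abundant form in liver, read 1594, 1717 and 1488 CPM against 1256, 1234 and 1146 CPM (0.39 ± 0.10, adjusted p = 0.0667). Those groups did not overlap either, although the difference missed the threshold. Eci1 moves double bonds of unsaturated chains so that they can enter beta-oxidation. It read 127, 124 and 126 CPM in knockouts and 91.8, 74.7 and 73.0 CPM in controls (0.65 ± 0.10, adjusted p = 0.0109). Decr1, the mitochondrial dienoyl-CoA reductase, read 144, 151 and 142 CPM against 119, 99.4 and 109 CPM (0.41 ± 0.09, adjusted p = 0.0457). Hadhb read 140.1, 161 and 142 CPM against 107, 106 and 110.3 CPM (0.45 ± 0.09, adjusted p = 0.0288). The spread between pools was small for these enzymes, so that differences well under 2-fold passed.

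**Figure D2:**
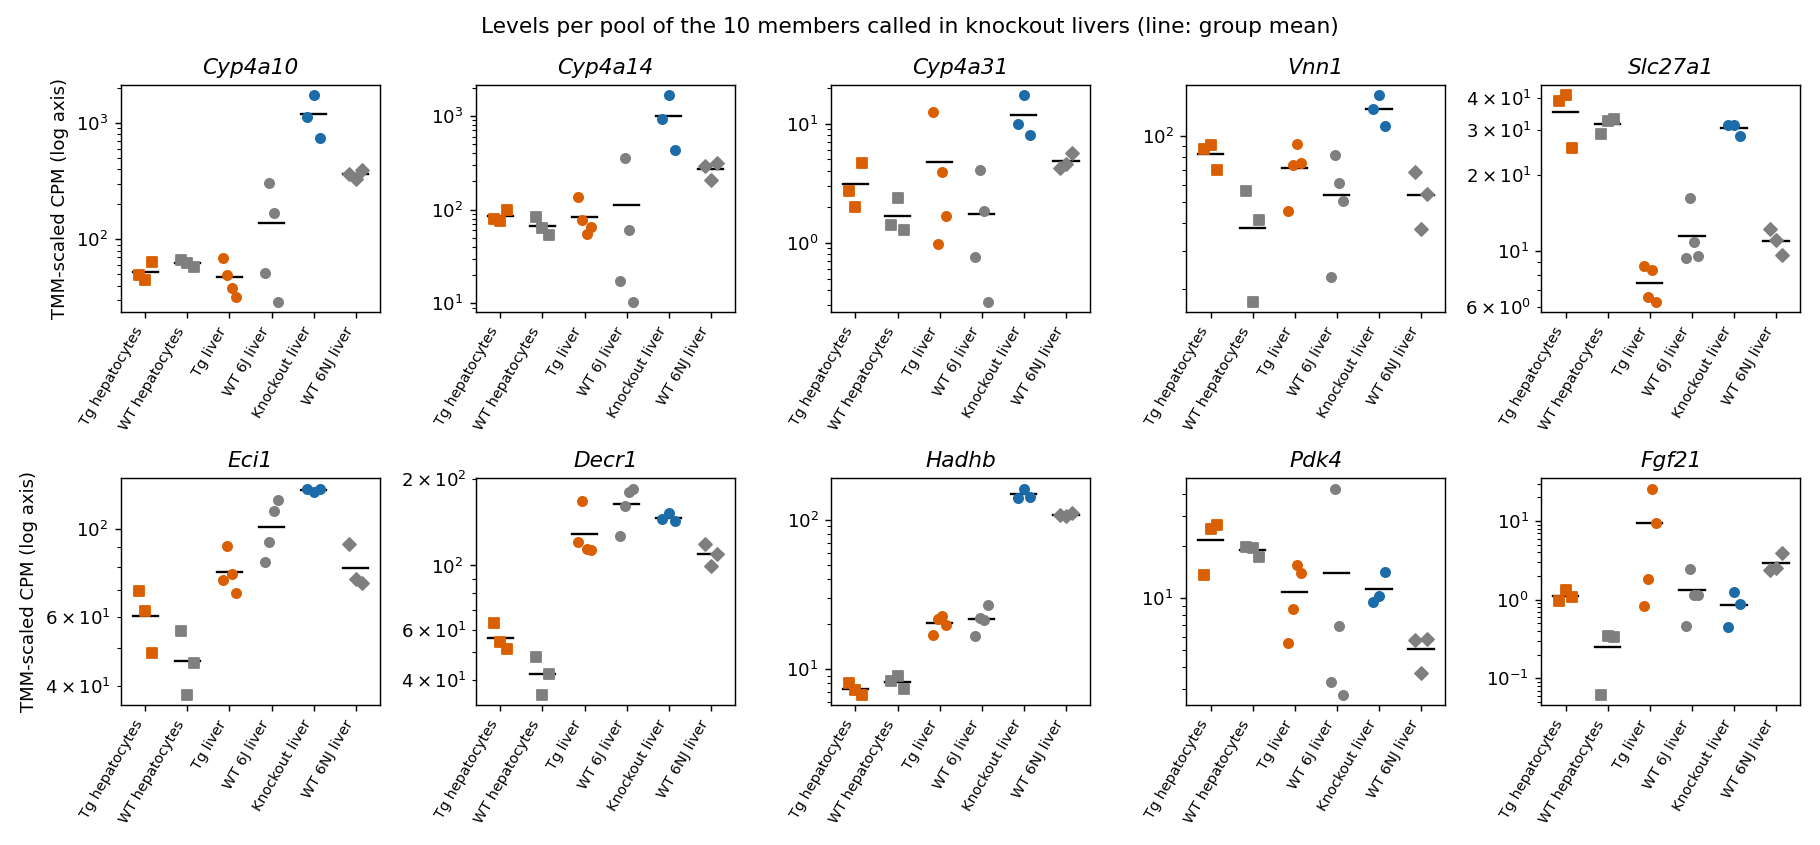
TMM-scaled CPM per pool on log axes for the 10 members that passed in knockout livers, in all 6 RNA groups (n = 3 or 4 pools; lines are group means). Knockout pools lie above all 6NJ pools for 9 genes and below them for Fgf21, and Hadhb is several times higher in both of these groups than in the other 4.

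The other 22 members stayed short of the threshold, and most had estimates a little above 0. Counting all 32, estimates lay above 0 for 29 (48.9% of all genes), and the median was 0.28 against -0.01 over all genes. The 2 groups did not overlap for 22 members, 21 of them higher in knockouts, where 24.2% of all genes did not overlap (12.2% higher). By role, the 3 carnitine shuttle genes had estimates from 0.24 to 0.25 and none passed. The 4 acyl-CoA dehydrogenases lay between -0.00 and 0.21, none passing. Etfa and Etfdh, which hand electrons from these enzymes to the respiratory chain, stood at 0.20 and 0.30. All 5 auxiliary enzymes for unsaturated fatty acids were positive and 2 passed. Of the peroxisomal trio, Acaa1a and Acaa1b were at 0.44 and 0.31, and Ehhadh at -0.34 (adjusted p = 0.173).

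How many members passed depended on single pools, as did the share of all genes that passed. Without knockout pool 1, 2 or 3 the count was 4, 6 and 6 (0.837%, 1.78% and 1.13% of all genes). Without control pool 1, 2 or 3 it was 10, 3 and 6 (3.92%, 1.18% and 1.79% of all genes). Cyp4a10, Slc27a1 and Vnn1 passed in all 6 of these fits, Eci1 and Pdk4 in 4, Fgf21 and Hadhb in 2, and Cyp4a14, Cyp4a31 and Decr1 in 1. With all 6 RNA groups sharing 1 estimate of spread, Slc27a1 alone passed, as 1 of 42 genes in all, and DESeq2 called 13 members including the 10 (5.66% of all genes).

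Markers of other tissues moved with the knockout label. Of 17 skeletal muscle genes tested, 16 had estimates above 0 in knockout livers and 15 passed as higher. The summed level of the 20 listed was 330, 95.1 and 278 CPM in the knockout pools and 79.4, 87.9 and 65.7 CPM in controls; 1 gene was at 0 in every knockout pool and 5 in every control pool. Pool 2, with 95.1 CPM, held the least muscle RNA of the 3 knockouts, with Acta1, skeletal muscle actin, at 7.90 CPM. Of the 3 knockouts this pool had the highest Cyp4a10, Cyp4a14, Cyp4a31 and Vnn1, and its Slc27a1 and Pdk4 read 31.4 and 10.3 CPM. Adipocyte genes (8 listed) summed to 204, 146 and 317 CPM against 51.7, 21.6 and 77.2 CPM, led by Cfd (complement factor D) at 71.7 to 166 CPM beside 2.06 to 3.06 CPM. The 8 stellate cell genes were all higher at an unadjusted p below 0.05, with sums of 656 to 692 CPM against 512 to 550.2 CPM, but edgeR called none and DESeq2 3. Hepatocyte genes summed to 79320 to 83220 CPM against 88330 to 98930 CPM. With knockout pools 1 and 3 left out, pool 2 alone stood for the knockout, and the members' median log2 difference was 0.36 (0.28 with all pools). The muscle sum of pool 2 was still above that of every control pool. The part of the muscle, adipocyte and stellate cell genes in the members' differences was not tested.

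**Figure D3:**
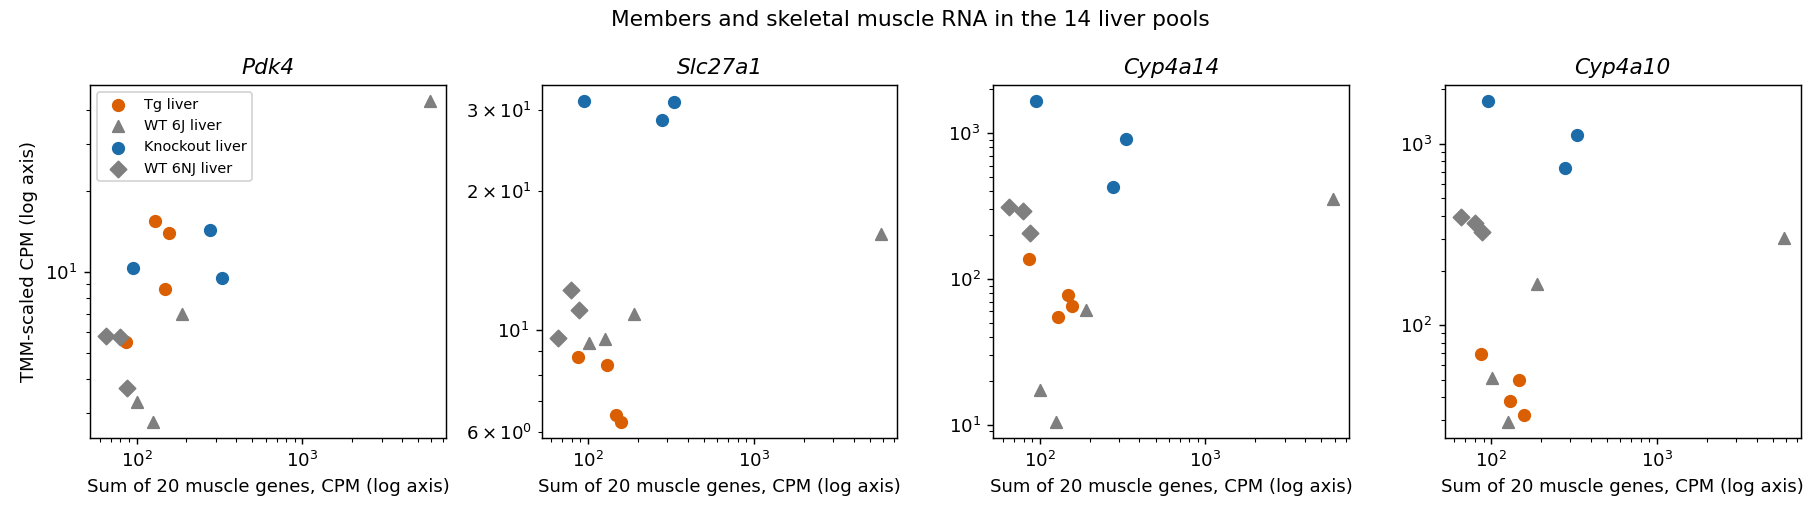
TMM-scaled CPM of Pdk4, Slc27a1, Cyp4a14 and Cyp4a10 against the summed CPM of 20 skeletal muscle genes in the 14 liver pools, both on log axes; each point is 1 pool. The 6J pool at 5854 CPM of muscle RNA has the highest Pdk4, while the 3 knockout pools have the highest Slc27a1, Cyp4a14 and Cyp4a10 at 95.1 to 330 CPM of muscle RNA.

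Further genes of the pathway, 55 that are not members, were read from a written list. In knockout livers 8 of the 54 tested passed, 6 higher and 2 lower, with a list median of 0.11. Of the 2 that fell, Acsl3, an acyl-CoA synthetase, fell by 0.59 on the log2 scale, and the other is not described here. The 6 that rose were the fatty acid binding protein Fabp1 (0.73), the monoglyceride lipase Mgll (0.71), the carnitine acetyltransferase Crat (0.68), the fatty acid translocase Cd36 (0.67), the aldehyde dehydrogenase Aldh3a2 (0.60) and Cyp4a32 (0.57). Of 24 regulators of fatty acid oxidation, Pparg (0.86) and the receptor Fgfr1 (0.74) rose and none fell. Among 11 genes that respond to fasting and feeding, Pck1 of gluconeogenesis rose (0.56) and Fasn of fatty acid synthesis fell (-0.72).

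In plated hepatocytes no member passed between Tg and wild-type, where 3.15% of all genes did. At an unadjusted p below 0.05 there were 11 members, 10 higher and 1 lower, beside 28.9% of all genes (13.5% higher), and DESeq2 called 8, all higher (14.6% of all genes). Estimates lay above 0 for 23 members, with a median of 0.24 against -0.02 over all genes (48.9% above 0). The 2 groups did not overlap for 11 members (32.4% of all genes), of which 10 were higher in Tg (16.7%).

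The peroxisomal thiolase Acaa1b came nearest to the threshold. It read 97.0, 98.0 and 104 CPM in Tg pools and 32.5, 63.1 and 36.0 CPM in wild-type pools, which do not overlap (1.14 ± 0.27, adjusted p = 0.0685). Its twin Acaa1a read 144, 122 and 104 CPM against 90.9, 67.4 and 75.7 CPM (0.62 ± 0.16, adjusted p = 0.0804). Fgf21 read 0.971, 1.33 and 1.07 CPM in Tg and 0.0618, 0.349 and 0.331 CPM in wild type, again apart (2.11 ± 0.56, adjusted p = 0.0813), though its 3 wild-type libraries held only 2 to 13 counts. Both thiolases and the hormone were therefore lowest in wild-type pools. Vnn1 read 87.3, 91.3 and 70.3 CPM against 55.9, 17.6 and 41.2 CPM (1.08 ± 0.38, adjusted p = 0.131). Bdh1 read 41.1, 25.8 and 27.4 CPM against 20.9, 14.4 and 17.8 CPM (0.79 ± 0.23, adjusted p = 0.0980). Ech1, an isomerase for dienoyl chains, read 127, 112 and 101 CPM against 70.8, 81.3 and 64.6 CPM (0.61 ± 0.15, adjusted p = 0.0698). Each of these 6 genes was higher in every Tg pool than in any wild-type pool, at a p above the threshold. Acadm, the medium-chain dehydrogenase, was the 1 member whose Tg pools all lay below (64.0 to 82.7 CPM beside 93.5 to 97.7 CPM; -0.44 ± 0.14, adjusted p = 0.120). Cpt1a was level on average but uneven, at 95.8, 98.5 and 63.8 CPM against 129, 33.7 and 85.2 CPM (0.02 ± 0.44).

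These hepatocyte counts hinged on the choice of pools. Without Tg pool 3, 12 members passed, 9 higher and 3 lower, which is 37.5% of members where 35.0% of all genes passed. Without wild-type pool 2, Acaa1b alone passed (0.644% of all genes). Without the 3 pools of low mitochondrial share (Tg pools 1 and 2, wild-type pool 1), Tg pool 3 was the lone Tg library. The members' median log2 difference was then 0.33 (0.24 with all pools). With all 6 RNA groups in 1 fit 11 members passed, or 34.4% beside 25% of all genes, and without the filter on low counts Acaa1b passed (2.77% of all genes). Summed levels of genes of other cells differed in both directions. Kupffer cell and macrophage genes summed to 318 to 642 CPM in Tg pools beside 192 to 287 CPM, and adipocyte genes to 21.3 to 50.5 CPM beside 4.19 to 5.84 CPM. Cholangiocyte genes had a lower sum in Tg, at 459 to 670 CPM beside 710 to 1187 CPM. Their single genes were mixed, with 3 of the 5 tested above 0 and a median log2 difference of 1.31. Liver endothelium genes were level, at 52.8 to 56.3 CPM beside 54.8 to 58.6 CPM. The part of these in the members' differences was not tested.

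Among the other pathway genes 4 of 53 passed in hepatocytes. Cd36 rose from 6.06, 4.49 and 7.26 CPM to 24.9, 35.5 and 45.2 CPM (2.54 ± 0.30, adjusted p = 0.0151), a gene that macrophages and adipocytes also express. The mitochondrial carrier Ucp2 rose (2.09), as did Creb3l3, a transcription factor that acts with PPARalpha (1.18). The peroxisomal carnitine octanoyltransferase Crot fell (-0.85). None of 24 regulators passed in the edgeR test, 7 had an unadjusted p below 0.05 and DESeq2 called 1.

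In Tg livers, too, no member passed, where 1.33% of all genes did. Here 7 members had an unadjusted p below 0.05, 1 higher and 6 lower (20.3% of all genes, 8.55% lower), and DESeq2 called Ppara and Etfa, both lower, or 6.25% of members beside 8.8% of all genes. Estimates lay above 0 for only 5 members (49.4% of all genes), and the median was -0.22 against -0.00 over all genes. Groups did not overlap for 3 members (11.8% of all genes), and all 3 were lower (5.78%).

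Ppara had the smallest p. It read 250.2, 295, 216 and 248 CPM in Tg livers and 343, 322, 324 and 366 CPM in 6J livers, without overlap (-0.40 ± 0.11, adjusted p = 0.0982). Etfa read 78.8, 67.9, 42.7 and 55.3 CPM against 119, 91.5, 88.2 and 84.7 CPM (-0.63 ± 0.19, adjusted p = 0.116). Slc27a1 read 8.73, 6.55, 8.38 and 6.31 CPM against 9.37, 16.1, 10.8 and 9.58 CPM, the highest of these being the muscle-rich control pool 2 (-0.60 ± 0.21, adjusted p = 0.159). These 3 genes separated the groups by less than 2-fold. The reporters of PPARalpha activity scattered instead. Fgf21 read 0.823, 1.82, 26 and 9.51 CPM in Tg livers and 0.469, 2.48, 1.16 and 1.16 CPM in controls, with the high values confined to Tg pools 3 and 4 (2.85 ± 0.99, adjusted p = 0.155). Cyp4a10 read 69.8, 49.6, 38.0 and 32.2 CPM against 51.3, 302, 169 and 29.2 CPM, so that the spread lay in the controls (-1.53 ± 0.64, adjusted p = 0.225). Cyp4a14 read 138, 77.9, 55.2 and 65.4 CPM against 17.2, 356, 61.1 and 10.4 CPM. Pdk4 read 5.49, 8.67, 15.5 and 13.9 CPM against 3.28, 43.2, 6.96 and 2.76 CPM, and its estimate of -0.37 became 1.35 without control pool 2. For the last 3 genes the highest pool of all was the muscle-rich control pool 2. Among other pathway genes 1 of 53 passed, Acad12, an acyl-CoA dehydrogenase family member, which rose from 5.21 to 8.48 CPM in controls to 11.4 to 14.7 CPM (0.89 ± 0.17, adjusted p = 0.0480). None of the 24 regulators passed in edgeR or in DESeq2, and 2 had an unadjusted p below 0.05. Adipocyte genes summed to 43.9 to 96.3 CPM in Tg livers beside 4.28 to 24.2 CPM in controls, and macrophage genes to 392 to 594 CPM beside 275 to 515 CPM. Hepatocyte genes summed to 79570 to 107200 CPM in Tg livers and 120600 to 135700 CPM in controls. Of 12 circadian clock genes, which follow the hour of sampling, edgeR called Cry1 (-1.0), 10 had an unadjusted p below 0.05 (3 higher and 7 lower) and DESeq2 called 8, with a list median of -0.84. Their part in the members' values was not tested.

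Whether the label Tg went with different changes in the 2 preparations was tested by subtracting its hepatocyte effect from its liver effect. No member passed (0.842% of all genes), but 13 had an unadjusted p below 0.05, all 13 with the lower effect in liver (22.8% of all genes, 13.8% in that direction), and DESeq2 called 8 (6.52% of all genes). The members' median was -0.69, against -0.09 over all genes. In the separate fits it was -0.22 in liver and 0.24 in hepatocytes. The joint fit scales all 4 groups together, so its differences need not equal those between separate fits. With 1 pool left out the members' median ran from -0.86 to -0.47, and that of all genes from -0.11 to 0.04. Ech1 had the smallest p: its Tg effect was 0.61 in hepatocytes and -0.26 in liver, a difference of -1.06 ± 0.25 in the joint fit (adjusted p = 0.0648). Acaa1b (-1.45, adjusted p = 0.0685) and Acadvl (-0.75, adjusted p = 0.0726) followed. Without hepatocyte Tg pool 3, 12 members passed, 37.5% beside 22.4% of all genes, without hepatocyte wild-type pool 2 Acaa1b alone, and without liver Tg pool 2 Ech1 alone. Of the other pathway genes 4 passed, all with the lower effect in liver, among them Creb3l3 (-1.69), Cd36 (-2.35) and the aldehyde dehydrogenase Aldh9a1 (-1.0).

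The Tg effect in liver was also set against the knockout effect, each measured from its own controls. Of the members 2 passed (1.02% of all genes), both with the lower effect in Tg (0.411%): Slc27a1, with -0.60 in Tg and 1.47 in knockouts (difference -2.08 ± 0.26, adjusted p = 0.00244), and Eci1, with -0.36 and 0.65 (difference -1.02 ± 0.18, adjusted p = 0.0225). Slc27a1 passed in all 14 fits that left out 1 pool and Eci1 in 9, losing its call without knockout pool 1, 2 or 3 or 6NJ pool 2 or 3, with adjusted p up to 0.0858. Without the 3 liver pools richest in muscle RNA, which left 1 knockout pool, the members' median difference was -0.52 (-0.49 with all pools). Cyp4a10 (-3.24 ± 0.84, adjusted p = 0.0778) and Fgf21 (4.64 ± 1.27, adjusted p = 0.0908) had larger estimates and wider errors. Ehhadh, Fgf21 and Cyp4a31 had estimates above 0, as 50.9% of all genes did, and the other 29 members below 0; that of Cyp4a31 ran from -0.97 to 1.01 with 1 pool left out. Of the other pathway genes 6 passed, 1 with the higher and 5 with the lower effect in Tg. The 5 were Mgll (-1.32), Cyp4a32 (-1.08), Aldh9a1 (-0.73), Fabp1 (-1.46) and the dehydrogenase Bdh2 (-1.07).

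The wild-type livers differed between the 2 studies, in which substrain and sequencing study cannot be told apart. Between 6NJ and 6J livers 4 of 32 members passed, below the 19.8% of all genes that passed. Hadhb was 5.45-fold higher in 6NJ, at 107, 106 and 110.3 CPM beside 16.6, 21.9, 21.2 and 26.8 CPM (2.45 ± 0.15, adjusted p = 4.48e-06). The Tg livers, of the same study as 6J, read 16.9 to 22.6 CPM of Hadhb and the knockout livers 140.1 to 161 CPM. Its partner Hadha, transcribed from the neighbouring position on chromosome 5, read 339 to 358 CPM in 6NJ and 400.0 to 492 CPM in 6J (-0.24 ± 0.10, adjusted p = 0.140). Etfa was also higher in 6NJ (0.91 ± 0.14, adjusted p = 0.00160), at 159 to 174 CPM beside 84.7 to 119 CPM. Ehhadh (-0.60, adjusted p = 0.00918) and Acadvl (-0.37, adjusted p = 0.0305) were lower. Cyp4a10 was above all 6J pools in each 6NJ pool, without passing (1.52 ± 0.66, adjusted p = 0.141). Without 6J pool 2, the muscle-rich one, 8 members passed, 25% beside 21.8% of all genes, among them Cyp4a10, Cyp4a14, Cyp4a31 and Fgf21, while Acadvl did not.

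CLIP libraries, in which RNA crosslinked to A1CF was recovered from Tg hepatocytes, held few counts on these genes. Over 10 libraries of 6151 to 10902 counts the members took 38 of 80854 counts, 0.0470% (Wilson 95% interval 0.0343% to 0.0645%), while they took 0.211% of the RNA counts of Tg hepatocytes. The 10 libraries held 0 to 14 member counts each. Libraries 2, 5, 7, 8 and 9 held 5, 14, 5, 4 and 6, and libraries 1, 3, 4, 6 and 10 held 1, 0, 0, 1 and 2. The member counts behind the pooled shares came mostly from the former 5 libraries. Of the 38 counts Etfa had 23, all in libraries 2, 5, 7, 8 and 9. Ech1 had 5 in 5 libraries and Hadh 5 in 2 libraries. Unlike the members pooled, Etfa took a larger share of CLIP counts (0.02845%) than of the RNA counts of Tg hepatocytes (0.005017%). Ppara, Cpt2, Acads, Acadl and Acaa1a had 1 count each. The other 24 members had none, which allows a share of up to 0.00371% over all libraries, and at this depth absence cannot be shown. Without a control precipitate these counts are levels, not measures of binding, and intervals and limits cover counting error only.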

How the data were processed

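RNA-seq was measured in 20 libraries of 6 groups, and CLIP in 10. The authors deposited read counts per gene, with CPM and RPKM columns beside them; per the submitters' processing notes the tools were bcl2fastq, STAR 2.0.4b and featureCounts 1.45 of Subread, with GRCm38. The deposited counts were tested. The deposited CPM was used only to check that the counts give it back, and the deposited RPKM columns were not used. Whether counting used strand is not given in the sources used here. Symbols were matched for 40254 of 41388 genes.

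Counts were fitted per comparison, on the groups compared, with edgeR 4.0.16 in R 4.3.3 (filterByExpr, minimum count 10 and minimum total 15, TMM scaling, quasi-likelihood test), with Benjamini-Hochberg adjustment over all genes tested and a threshold of 0.05. Differences between effects were contrasts in 1 fit of the 4 groups involved. Standard errors (SE) are the absolute log2 fold change divided by the square root of the F statistic of the test. Scripts were tested on simulated data. Levels are TMM-scaled CPM over all 20 RNA libraries, and between genes are divided by the deposited gene length. Depth of 17044839 to 37211328 counts leaves the most counting error in Fgf21 and Cyp4a31, with libraries down to 2 and 5 counts, and in Pdk4 and Ppargc1a, down to 43 and 44. The CLIP counts are described without a test.

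The members and lists were chosen with earlier results of these data known, although no measured value enters the rule. Members were described in full where they passed, or where groups did not overlap with a fold of at least 1.5; the others by range and count. Replicate numbers were not taken to pair the samples. Alternatives were DESeq2 1.42.0, its size factors (RLE) in edgeR, no filter, a mean of at least 1 CPM, all 6 groups in 1 fit, a replicate block and each pool left out. Some genes of the pathway list are not reported here.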

Additional observations from a re-analysis of the deposited data

Results flagged for a closer look

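In groups of 4 liver pools, 6 of 64 member groups had 1 pool far from the other 3; chance gives about 1 in 20. In Tg livers, pool 1 was low for Hadha at 353 CPM, beside 413 to 421 CPM in the others. Tg liver pool 2 was high for Ech1 at 314 CPM, for Decr1 at 168 CPM and for Slc27a2 at 1614 CPM. In 6J livers, the muscle-rich pool 2 was high for Cyp4a14 at 356 CPM and for Pdk4 at 43.2 CPM. The Tg effect in liver differed from the knockout effect, in a test of the difference itself with edgeR, for Slc27a1 by -2.08 (adjusted p = 0.00244) and for Eci1 by -1.02 (adjusted p = 0.0225).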

How the results depend on the processing

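No member that passed, or whose groups lay apart by 1.5-fold or more, changed direction under the alternatives run for it; of all 224 member values, 31 changed sign with 1 pool left out, none of them called. With DESeq2 the members called were 8 in Tg hepatocytes (none in edgeR), 2 in Tg livers (none), 9 between 6NJ and 6J (4), 8 for Tg liver minus Tg hepatocytes (none) and 8 for Tg minus knockout (2). Over all genes DESeq2 called 2017 in Tg hepatocytes (434), 1242 in Tg livers (188) and 903 in knockout livers (475). It called 3564 between 6NJ and 6J (3052), 1015 for Tg liver minus hepatocytes (131) and 796 for Tg minus knockout (167). With all 6 groups in 1 fit, 11 members and 4323 genes passed in hepatocytes, 2 and 991 in Tg livers, 1 and 42 in knockouts, and 8 and 889 for Tg liver minus hepatocytes. Without the filter, 1 member and 669 genes passed in hepatocytes, 1079 genes in knockouts and 86 for Tg liver minus hepatocytes.

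With 1 pool left out at a time, members called ranged from 0 to 12 in hepatocytes (genes 0 to 4934), 0 to 0 in Tg livers (27 to 561), 3 to 10 in knockouts (137 to 645), 2 to 8 between substrains (1762 to 3228), 27 to 28 between hepatocytes and liver (9744 to 10823), 0 to 12 for Tg liver minus hepatocytes (5 to 3545) and 1 to 6 for Tg minus knockout (24 to 449). Chosen after seeing the data, leaving out the muscle-rich knockout pools gave 4 members and 55 genes, leaving out the hepatocyte pools of low mitochondrial share gave 2 members, and leaving out the 3 muscle-rich liver pools gave 1 member and 15 genes for Tg minus knockout. RLE scaling moved the members' median level to 55.5 CPM in Tg hepatocytes, 210 CPM in knockouts and 183 CPM in 6NJ. At most 1 mismatch, or none, left 0 of the 26 members with a DR1 match, beside 0.644% and 0.0481% of all genes.

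The replicate numbers were not taken to pair the samples. For same-numbered pools, deviations from the group mean were correlated over 11947 genes. The values were 0.79, -0.669 and -0.00851 in hepatocytes and 0.148, -0.00899 and -0.00607 in knockouts. With the replicate block, members and genes called were 0 and 21 in hepatocytes, 0 and 44 in Tg livers, 7 and 415 in knockouts, 3 and 1706 between substrains, 28 and 9686 between hepatocytes and liver, 0 and 21 for Tg liver minus hepatocytes, and 1 and 66 for Tg minus knockout. The cause of these shifts was not tested. Pools number 3 or 4 a group, which limits the precision of every count above.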
